A study of Mus musculus with 6 samples.

Results

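The Nduf genes encode the nuclear subunits of respiratory complex I and part of the factors that assemble it. Members were all probes whose gene symbol begins with Nduf in the deposited fold-change table, 66 of its 31692 probes, and these stand for 45 genes among 22513 tested features. A feature is a gene at its brightest probe, or a probe without a symbol. By role the 45 genes were 7 nuclear core subunits, 25 accessory subunits of the a, b and c series, 4 accessory subunits of the s and v series, 7 Ndufaf assembly factors, and Ndufa4 with Ndufa4l2. Ndufa4 was first described as a complex I subunit and is now placed in complex IV, so it and its paralogue Ndufa4l2 were counted apart.

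Complex I, the NADH:ubiquinone oxidoreductase of the inner mitochondrial membrane, passes electrons from NADH through a flavin and a chain of iron-sulphur clusters to ubiquinone, and pumps protons as it does so. The core subunits carry out this chemistry and are shared with bacteria, while the accessory subunits surround and stabilise them. Assembly factors act while the arms of the enzyme are put together and leave before it is complete. In blood-forming and lymphoid tissue the respiratory chain serves dividing precursors and activated lymphocytes, among other cells.

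RNA came from the spleen of female NOD mice, an inbred strain that develops autoimmune diabetes without induction. One group had been given MOTS-c, a short peptide encoded within mitochondrial DNA, by daily intraperitoneal injection at 0.5 mg/kg/day. The other had been given a scrambled MOTS-c peptide as vehicle. All mice were 6 weeks old when they entered the study, and were killed at 18 weeks, having fasted for 16 to 18 h. Each group had 3 arrays, called MOTS-c 1 to 3 and vehicle 1 to 3, and each array read 1 Cy3-labelled sample. Nothing in the labels states that each sample is a mouse of its own, so a p-value here covers the spread among 6 samples, which may be technical. The slide numbers in the file headers place MOTS-c 1 to 3 and vehicle 3 on slide 2, and vehicle 1 and vehicle 2 on slide 1.

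Each array had 59305 spots other than controls, of which 61.8% to 64.0% were well above background and 0 were saturated. A level is the log2 of a probe's signal over the 75th percentile of its array, which lay between 678 and 926 intensity units. A level of 0 is therefore the signal of that percentile. Differences are MOTS-c minus vehicle on the log2 scale with the standard error of limma's fit, unless stated otherwise. Marker lists were looked up, and a marker counted as found if well above background on every array of at least 1 group. All 10 T cell, 9 B cell, 12 erythroid, 10 dividing cell, 8 neutrophil and 6 macrophage markers were found. So were 6 of 7 markers of the exocrine pancreas, a tissue that lies against the spleen. Most spots of each array were well above background, so this does not tell spleen from other tissues. Across all 22513 features 2 passed limma's test at a Benjamini-Hochberg adjusted p under 0.05, which is 0.00888% of features, both higher with MOTS-c. At an unadjusted p under 0.05 there were 5589.

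With MOTS-c, 42 of the 45 Nduf genes had a lower mean than with vehicle, where 48.5% of all features did. The median difference of the 45 genes was -0.34, against 0.015 over all features, and single genes ranged from -0.73 for Ndufv1 to 0.32 for Ndufaf4. None of the 45 passed limma's test over all features, the smallest adjusted p being 0.0874, for Ndufb9. In 36 genes every MOTS-c array read below every vehicle array, a pattern found in 19.1% of all features. In 2 genes, Ndufaf4 and Ndufaf5, every MOTS-c array read above every vehicle array, as in 15.8% of features. At an unadjusted p under 0.05 there were 22 lower Nduf genes, where 14.1% of features were lower at that threshold, and 1 higher gene, Ndufaf4, where 10.7% of features were higher. With 3 arrays against 3 an exact permutation test of a single gene cannot give a p below 0.1. In bulk spleen RNA, fewer cells of a type that holds much of these transcripts and less of them per cell cannot be told apart.

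**Figure D1:**
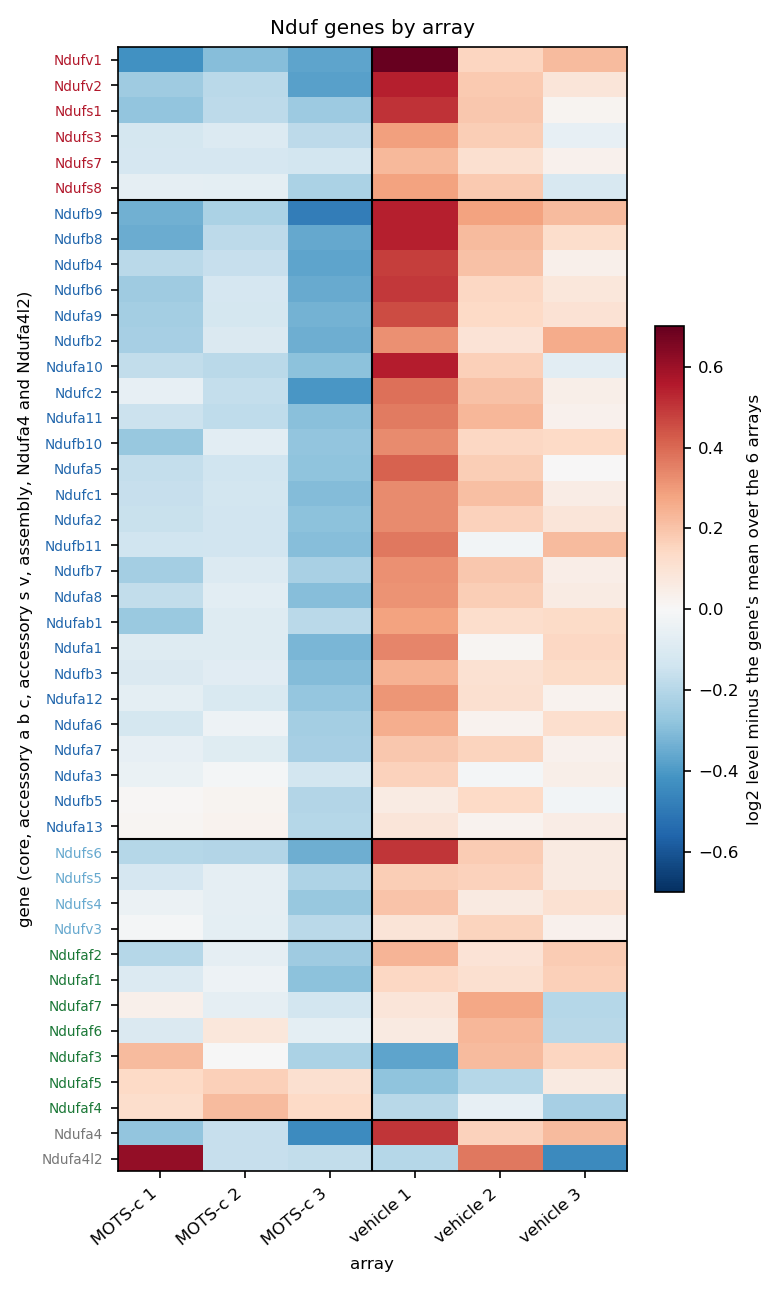
Log2 level of the Nduf genes on each array, as its deviation from that gene's mean over the 6 arrays; blue is below and red above the mean, and the label colour gives the role. The MOTS-c columns are blue for nearly all subunits and the vehicle 1 column is the darkest red, while the assembly factors follow no single pattern.

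The authors' normalized columns, log2 values that were quantile normalized between arrays, gave the same direction at a smaller size. On them the median of the 45 genes was -0.15, against 0.043 over all 20900 features of that table, and 38 of the 45 had a lower mean, where 45.4% of features did. Every MOTS-c value lay below every vehicle value for 23 genes, where 16.4% of features had that pattern. Lower at an unadjusted p under 0.05 were 9 genes, against a share of 13.3% of features. The smallest adjusted p of an Nduf gene in limma's fit of these columns was 0.106. In the authors' deposited table of fold changes, 14 of the 66 Nduf probes were lower at a p under 0.05, where 7.9% of its probes were, and 0 passed its adjusted p.

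On the 75th percentile scaling bright probes had lower means with MOTS-c in general, and most subunit probes are bright. Among the 1247 features whose mean level lay between 4 and 6, the median difference was -0.21, and every MOTS-c value was below every vehicle value in 43.6% of them. The 24 Nduf genes in that range had a median of -0.38, and 22 of them showed that pattern. Lower at an unadjusted p under 0.05 were 15 of the 24, beside 27.7% of the features of that range. Between levels of 2 and 4 the 3398 features had a median of -0.081 and 30.8% were entirely below vehicle, and the 12 Nduf genes there had a median of -0.34 with 11 entirely below. Of those 12, 5 were lower at an unadjusted p under 0.05, beside 21.7% of the features of that range. On the authors' normalized columns the brighter range had a median of 0.028 for all its features and -0.15 for its Nduf genes. These ranges were chosen after the data were seen.

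**Figure D2:**
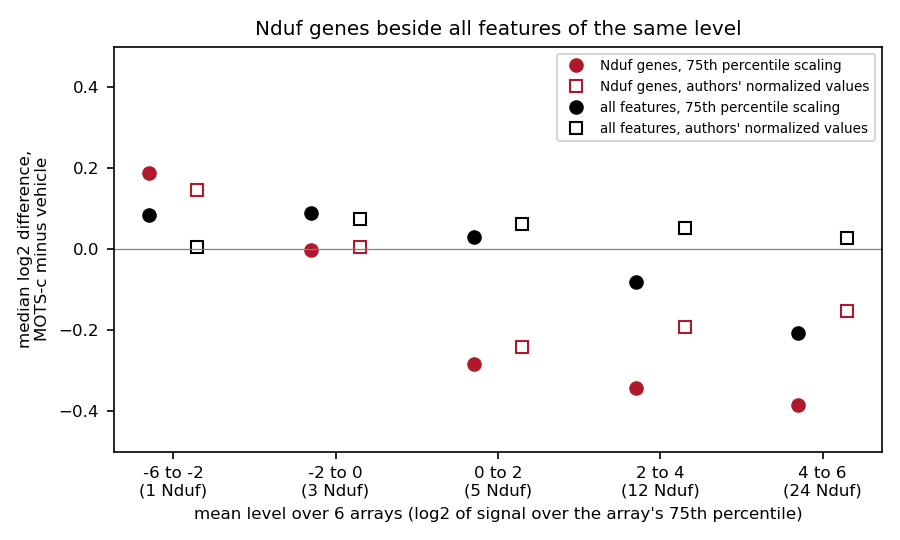
Median log2 difference, MOTS-c minus vehicle, for Nduf genes (red) and for all features (black) of the same range of mean level, with filled circles for the 75th percentile scaling and open squares for the authors' normalized values. In the 2 brightest ranges, which hold 36 of the 45 Nduf genes, the red points lie below the black ones under both scalings; the dimmest ranges hold 1 and 3 Nduf genes.

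The core subunits hold the redox centres, and all 7 nuclear ones had a lower mean with MOTS-c. Their median difference was -0.31, or -0.20 on the authors' normalized columns, and in 6 of the 7 the MOTS-c arrays lay entirely below the vehicle arrays, where 19.1% of all features had that pattern. At levels of 2 to 4 and of 4 to 6, where the 7 genes lie, 30.8% and 43.6% of features had that pattern. On the normalized columns 4 of the 7 had it, against 16.4% of features. Ndufv1 carries the NADH site and the flavin. It read 4.02, 4.15 and 4.08 on MOTS-c arrays 1 to 3, against 5.17, 4.60 and 4.67 on vehicle arrays 1 to 3. All 3 MOTS-c values were below all 3 vehicle values, and vehicle 1 was the highest by a wide margin. The difference was -0.73 ± 0.18, a signal 1.66-fold lower, with an adjusted p of 0.101 by limma, and -0.55 without vehicle 1. The probe lies at chr19:4007508-4007567 in mm9, the build of the array's design. Ndufv2, which holds an iron-sulphur cluster beside the flavin subunit, read 3.86, 3.92 and 3.73 with MOTS-c and 4.65, 4.29 and 4.19 with vehicle, a difference of -0.54 ± 0.17. Ndufs1, the largest subunit of the peripheral arm and the holder of several clusters, read 3.23, 3.32 and 3.25 with MOTS-c and 4.01, 3.69 and 3.52 with vehicle, a difference of -0.47 ± 0.17. In both genes the groups were apart and vehicle 1 was again the highest array. These 3 genes form the NADH-oxidising tip of the enzyme and had the largest differences among the core subunits. They differed by -0.49 for Ndufv1, -0.30 for Ndufv2 and -0.29 for Ndufs1 on the normalized columns.

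Other core genes belong to the ubiquinone-binding part. Ndufs7, which holds the last cluster of the chain, read 4.00, 4.00 and 3.99 with MOTS-c and 4.35, 4.23 and 4.15 with vehicle, and differed by -0.24 ± 0.13. Ndufs3, a scaffold of the ubiquinone-binding region, read 3.97, 4.00 and 3.91 with MOTS-c and 4.38, 4.27 and 4.04 with vehicle, and differed by -0.27 ± 0.15. Both genes had separate groups, with vehicle 3 the closest to the MOTS-c arrays. Ndufs8, a carrier of further clusters, read 3.90, 3.89 and 3.74 with MOTS-c and 4.25, 4.14 and 3.85 with vehicle. Here the groups overlapped, since vehicle 3 lay below MOTS-c 1 and MOTS-c 2, and the difference was -0.23 ± 0.16. On the authors' normalized columns Ndufs3, Ndufs7 and Ndufs8 differed by -0.037, -0.014 and -0.011, well within their standard errors.

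**Figure D3:**
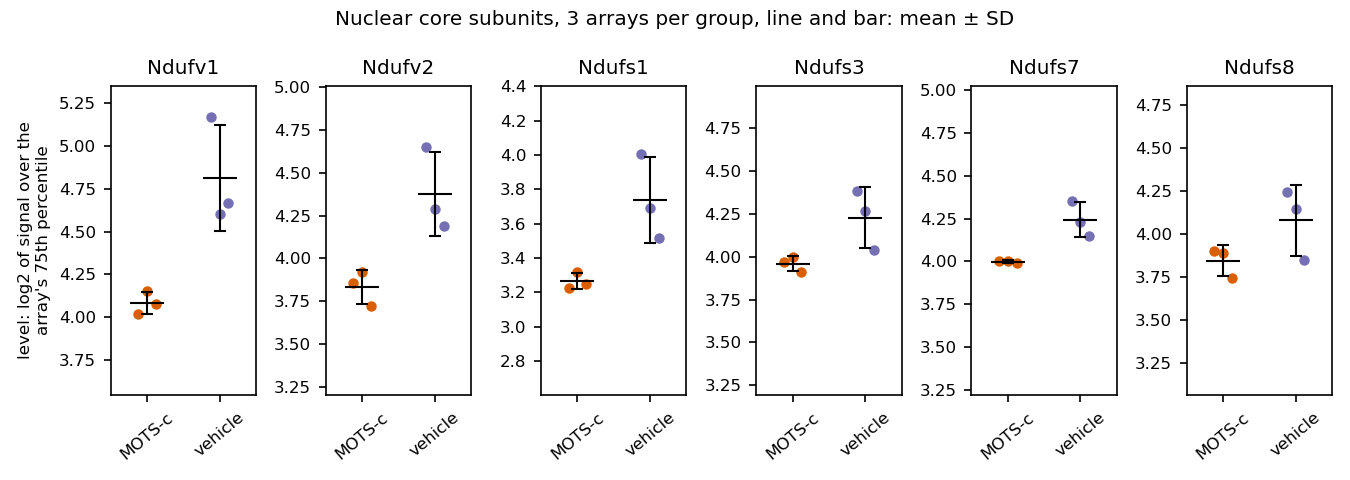
Level of 6 nuclear core subunits on each array (points), with the mean and SD of the 3 MOTS-c arrays on the left and the 3 vehicle arrays on the right of each panel; every panel spans the same range of log2 units. Only Ndufs8 has overlapping groups, and the highest vehicle point is vehicle 1 in each panel.

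All 25 accessory subunits of the a, b and c series had a lower mean with MOTS-c. Their median difference was -0.38, and 23 had separate groups, where 19.1% of all features and 43.6% of those at levels of 4 to 6 lay entirely below vehicle. Lower at an unadjusted p under 0.05 were 16, beside 14.1% of all features and 27.7% of those at levels of 4 to 6. On the authors' normalized columns the median was -0.16, with 22 of the 25 lower. There 14 had separate groups, beside 16.4% of features, and 5 were lower at an unadjusted p under 0.05, beside 13.3% of features. Ndufb9, a small protein of the far end of the membrane arm, read 4.52, 4.63 and 4.38 with MOTS-c, against 5.40, 5.14 and 5.08 with vehicle. Its 3 MOTS-c arrays were well below its 3 vehicle arrays, at a difference of -0.70 ± 0.15 or 1.62-fold, the smallest adjusted p of the family. The probe lies at chr15:58770972-58771031 in mm9. Ndufb8, of the same end of the membrane arm, read 4.69, 4.85 and 4.68 with MOTS-c and 5.58, 5.26 and 5.16 with vehicle, and differed by -0.59 ± 0.16. Ndufb2, also of the membrane arm, read 3.98, 4.11 and 3.87 with MOTS-c and 4.53, 4.30 and 4.47 with vehicle, and differed by -0.45 ± 0.14. Vehicle 1 was highest for both, and vehicle 3 was close to it for Ndufb2 alone. The normalized columns gave -0.46 for Ndufb9, -0.35 for Ndufb8 and -0.21 for Ndufb2.

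Other subunits of the b series gave similar values. Ndufb4, a subunit of the membrane arm's far end, read 4.62, 4.65 and 4.44 with MOTS-c and 5.29, 5.01 and 4.85 with vehicle, a difference of -0.48 ± 0.16. Ndufb6, another of that end, read 2.38, 2.51 and 2.27 with MOTS-c and 3.12, 2.78 and 2.71 with vehicle, a difference of -0.48 ± 0.16. Ndufb10, which faces the intermembrane space, read 4.59, 4.77 and 4.57 with MOTS-c and 5.18, 4.99 and 4.99 with vehicle, a difference of -0.41 ± 0.14. In each of these, MOTS-c 3 was the lowest and vehicle 1 the highest of the 6 arrays. Ndufa9, a nucleotide-binding subunit next to the ubiquinone site, read 2.36, 2.48 and 2.27 with MOTS-c and 3.06, 2.74 and 2.70 with vehicle, a difference of -0.46 ± 0.16. Ndufa11, a membrane subunit at the junction with complex III in supercomplexes, read 1.71, 1.68 and 1.56 with MOTS-c and 2.22, 2.09 and 1.89 with vehicle, a difference of -0.42 ± 0.15. Both had separate groups. Differences on the normalized columns were -0.24 for Ndufb4, -0.37 for Ndufb6, -0.16 for Ndufb10, -0.36 for Ndufa9 and -0.35 for Ndufa11.

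At the other end of the accessory subunits were 3 genes with differences near 0. Ndufa13, also known as GRIM-19 for its part in cell death, read 5.77, 5.78 and 5.55 with MOTS-c and 5.84, 5.78 and 5.81 with vehicle, a difference of -0.11 ± 0.14. Ndufb5, of the membrane arm, read 4.16, 4.18 and 3.95 with MOTS-c and 4.21, 4.29 and 4.14 with vehicle, a difference of -0.12 ± 0.14. Ndufa3, a small membrane subunit, read 4.86, 4.89 and 4.77 with MOTS-c and 5.06, 4.89 and 4.95 with vehicle, a difference of -0.13 ± 0.13. The groups overlapped for Ndufb5 and Ndufa3 and nearly met, without overlap, for Ndufa13. All 3 differences were positive on the authors' normalized columns, at 0.13, 0.12 and 0.11. The 14 accessory genes not named so far differed by -0.43, for Ndufa10, to -0.25, for Ndufa7. On the normalized columns they ranged from -0.30, for Ndufa10, to -0.00030, for Ndufa7, with Ndufa6 at -0.018.

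The 4 accessory subunits of the s and v series had lower means too, with a median difference of -0.26, and each had separate groups, where 19.1% of all features lay entirely below vehicle. At levels of 2 to 4 and of 4 to 6, where the 4 genes lie, 30.8% and 43.6% of features did. The median of the 4 genes on the normalized columns was -0.054, and 2 of the 4 had separate groups, beside 16.4% of features. Ndufs6, a zinc-binding subunit that is added late in assembly, read 4.63, 4.63 and 4.49 with MOTS-c and 5.33, 5.01 and 4.89 with vehicle, a difference of -0.50 ± 0.16. Ndufs4, whose loss in mice gives a model of Leigh syndrome, read 3.16, 3.14 and 2.94 with MOTS-c and 3.40, 3.26 and 3.31 with vehicle, a difference of -0.25 ± 0.14. Of the 4 genes Ndufs6 alone had an unadjusted p under 0.05 by limma, where 14.1% of all features were lower at that threshold. In the ranges where the 4 genes lie, levels of 2 to 4 and of 4 to 6, 21.7% and 27.7% of features were. Ndufs5, of the membrane arm, read 4.11, 4.16 and 4.01 with MOTS-c and 4.40, 4.39 and 4.29 with vehicle, a difference of -0.26 ± 0.13. Ndufv3, bound to the NADH-oxidising tip, read 3.41, 3.36 and 3.24 with MOTS-c and 3.51, 3.58 and 3.46 with vehicle, a difference of -0.18 ± 0.13. The authors' normalized columns gave -0.26 for Ndufs6, -0.087 for Ndufs4, -0.021 for Ndufs5 and -0.015 for Ndufv3.

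By place in the enzyme, each part of the complex had a negative median. The N module, which oxidises NADH, had a median of -0.34 over 10 genes, and the Q module, which reduces ubiquinone, -0.29 over 6. The near part of the membrane arm had -0.36 over 9 genes and its far part -0.41 over 11. These medians were, on the normalized columns, -0.13 for the N module, -0.094 for the Q module, -0.18 for the near part and -0.16 for the far part, so the far part no longer had the lower median of the membrane arm. All 36 subunits had lower means, 33 of them with separate groups, beside 19.1% of all features. At levels of 2 to 4 and of 4 to 6, which hold every subunit but Ndufa11, that share was 30.8% and 43.6%. On the normalized columns 33 of the 36 had lower means and 20 had separate groups, beside 16.4% of features. Under the 7 scalings tried, 30 of the 36 stayed lower throughout, a count made without the share over all features. Ndufa4, now placed in complex IV, read 3.88, 4.00 and 3.72 with MOTS-c and 4.66, 4.32 and 4.38 with vehicle, a difference of -0.59 ± 0.16 with separate groups, or -0.35 on the normalized columns. Ndufa4l2, a paralogue induced by low oxygen, read -2.46, -3.24 and -3.25 with MOTS-c and -3.28, -2.71 and -3.53 with vehicle. Its groups overlapped widely, MOTS-c 1 was the highest array, and its difference of 0.19 ± 0.30 turned to -0.073 without that array.

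**Figure D4:**
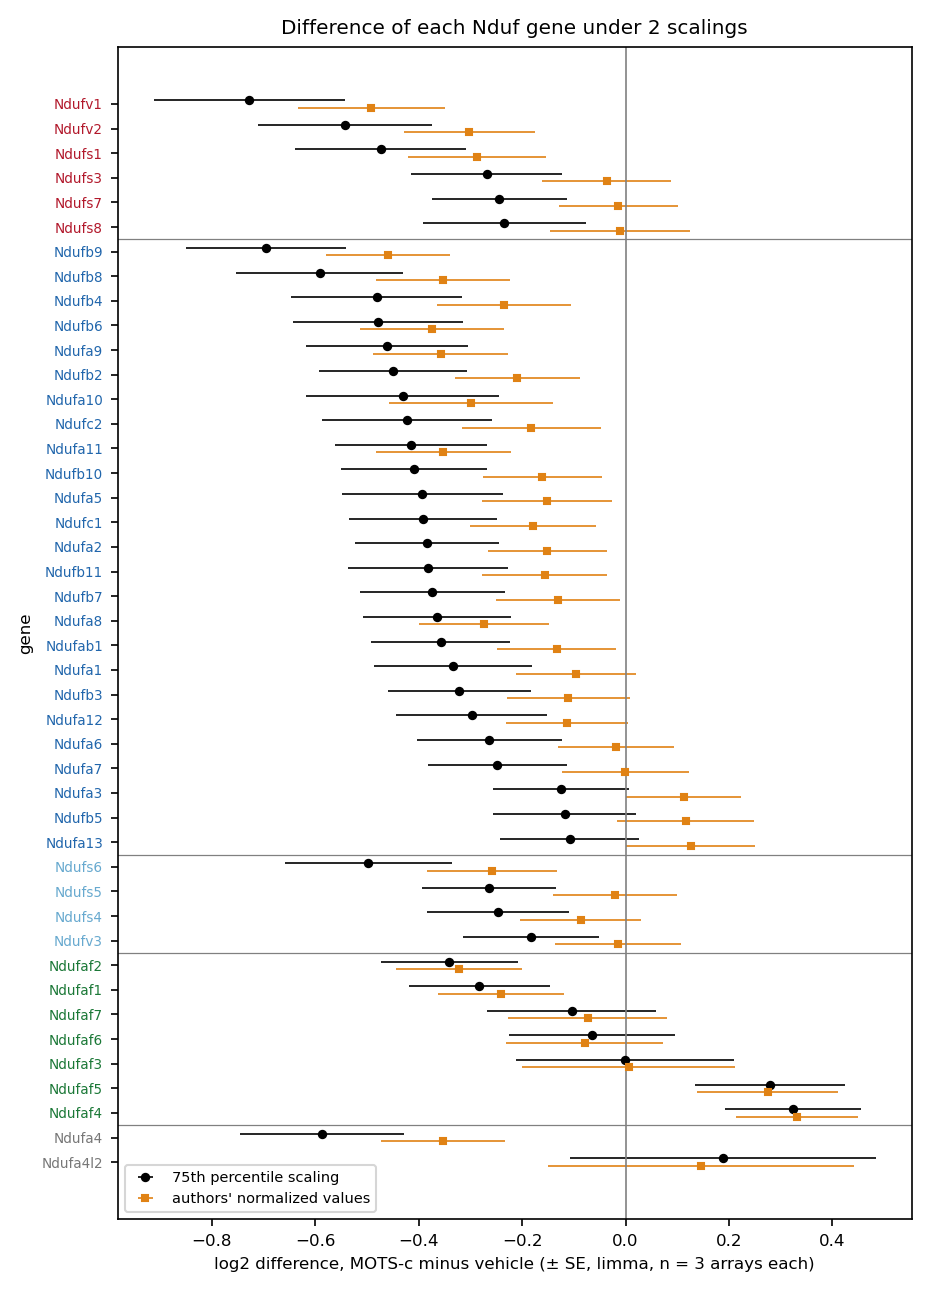
Log2 difference, MOTS-c minus vehicle, of the Nduf genes with their standard errors from limma (n = 3 arrays each), on the 75th percentile scaling (black circles) and on the authors' normalized values (orange squares); genes are ordered by role and label colours give the role. The orange points of the subunits shown lie to the right of the black ones, and those of the assembly factors nearly coincide with them.

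The 7 Ndufaf assembly factors lacked a common direction: 5 means were lower and 2 higher, with a median of -0.065. At an unadjusted p under 0.05 by limma 1 was lower, Ndufaf2, where 14.1% of all features were. At that threshold 1 was higher, Ndufaf4, where 10.7% of all features were. In 2 of the 7 the MOTS-c arrays lay entirely below the vehicle arrays and in 2 entirely above. Of all features 19.1% lay entirely below and 15.8% entirely above. Ndufaf4, which acts with Ndufaf3 early on the ubiquinone-binding part, read 0.35, 0.45 and 0.36 with MOTS-c, against 0.028, 0.16 and -0.0068 with vehicle. Every MOTS-c array was above every vehicle array, at a difference of 0.32 ± 0.13 or 1.25-fold higher, with an adjusted p of 0.19 by limma. The authors' normalized columns gave 0.33 ± 0.12, and leaving out each array in turn gave 0.29 to 0.37. Its probe lies at chr4:24830285-24830344 in mm9. Ndufaf5, which hydroxylates an arginine of Ndufs7, read -0.34, -0.31 and -0.36 with MOTS-c and -0.76, -0.68 and -0.42 with vehicle, a difference of 0.28 ± 0.15. Those groups were also apart, with vehicle 3 close to the MOTS-c arrays, and a dimmer probe of the gene differed by -0.10 ± 0.17. With the slide as a block the difference of Ndufaf5 was 0.079, with an unadjusted p of 0.667 by limma, while that of Ndufaf4 was 0.39. The mean of the probes of Ndufaf5 differed by 0.088.

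On the lower side were the other factors with separate groups. Ndufaf2, a late factor of the NADH-oxidising part, read 0.43, 0.56 and 0.38 with MOTS-c and 0.86, 0.72 and 0.80 with vehicle, a difference of -0.34 ± 0.13. Ndufaf1, a member of the complex that builds the membrane arm, read 1.15, 1.21 and 0.95 with MOTS-c and 1.39, 1.36 and 1.41 with vehicle, a difference of -0.28 ± 0.14. These values hardly moved on the authors' normalized columns, at -0.32 and -0.24. The groups of the remaining factors overlapped. Ndufaf3, the partner of Ndufaf4, read 0.16, -0.061 and -0.28 with MOTS-c and -0.43, 0.16 and 0.092 with vehicle, a difference of -0.0016 ± 0.21. Ndufaf6, another early factor, read -0.98, -0.80 and -0.95 with MOTS-c and -0.82, -0.65 and -1.07 with vehicle, a difference of -0.065 ± 0.16. Ndufaf7, a methyltransferase that acts early in assembly, read 1.16, 1.06 and 0.99 with MOTS-c and 1.21, 1.39 and 0.93 with vehicle, a difference of -0.10 ± 0.16. In Ndufaf6 and Ndufaf7 vehicle 2 was the highest and vehicle 3 the lowest of the 6 arrays.

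Per array, the 36 subunits deviated from their gene means by -0.16, -0.12 and -0.28 on MOTS-c arrays 1 to 3, against 0.34, 0.14 and 0.070 on vehicle arrays 1 to 3. For the 7 assembly factors the deviations were 0.017, 0.043 and -0.10 with MOTS-c and -0.045, 0.10 and -0.0097 with vehicle. The subunit means of the groups were apart and those of the assembly factors overlapped. Assembly factors also had levels of -1.07 to 1.41. Over all features the median difference was 0.089 between levels of -2 and 0 and 0.031 between 0 and 2, so role and signal strength go together here. A difference between the roles was not tested. The 10 tested assembly factors of complex I with other names had a median difference of -0.022, with 6 lower and 4 higher.

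Promoter sequences from RefSeq were found for 39 of the 45 genes, in a table of 27025 genes on GRCm38.p6 that spans 250 bases before to 50 after each start. They were searched on both strands for short motifs of factors known for respiratory genes. A core of the nuclear respiratory factor 1 motif, GCGCANGCG, was in 10 of the 39, or 25.6%, where 7.03% of all promoters of that length held it. The 10 were the promoters of Ndufa5, Ndufa6, Ndufa8, Ndufa11, Ndufb4, Ndufb10, Ndufs5, Ndufs6, Ndufaf4 and Ndufaf5. Of these, 8 belong to subunits with lower means and 2 to the assembly factors with separate higher groups. The form with its free base set to T, GCGCATGCG, is contained in that core. It was in 4 of the 39, where 1.95% of all genes held it. These 4 are shown because they include both higher assembly factors and 2 lower subunits. Capitals mark that form or its reverse complement, and in Ndufa11, Ndufaf4 and Ndufaf5 the matches on both strands overlap. The capitals begin -60, -9, -113 and 16 bases from the start of Ndufa11, Ndufa8, Ndufaf4 and Ndufaf5, in that order.

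Ndufa11 promoter, chr17:56717632-56717781, plus strand: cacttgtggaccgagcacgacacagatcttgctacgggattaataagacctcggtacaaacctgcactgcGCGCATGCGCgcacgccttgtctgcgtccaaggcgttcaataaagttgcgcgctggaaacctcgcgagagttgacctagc
Ndufa8 promoter, chr2:36049309-36049458, minus strand: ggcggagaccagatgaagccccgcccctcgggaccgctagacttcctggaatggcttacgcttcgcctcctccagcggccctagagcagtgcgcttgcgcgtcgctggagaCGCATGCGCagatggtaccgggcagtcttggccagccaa
Ndufaf4 promoter, chr4:24897900-24898049, plus strand: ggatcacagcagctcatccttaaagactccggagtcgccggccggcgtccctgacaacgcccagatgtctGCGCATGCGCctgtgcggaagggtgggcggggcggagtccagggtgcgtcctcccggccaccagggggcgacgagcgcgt
Ndufaf5 promoter, chr2:140170526-140170675, plus strand: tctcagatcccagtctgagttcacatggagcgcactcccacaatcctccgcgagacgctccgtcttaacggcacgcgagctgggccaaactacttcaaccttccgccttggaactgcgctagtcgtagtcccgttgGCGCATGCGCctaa

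The same letters lay near the starts of genes whose measured differences had opposite signs, -0.42 for Ndufa11 and -0.36 for Ndufa8, against 0.32 for Ndufaf4 and 0.28 for Ndufaf5. These 4 promoters were shown for that contrast, with letters chosen after the data were seen. A link between the motif and the differences was not tested. The YY1 motif AAGATGGCG was in 5 of the 39, those of Ndufa9, Ndufc1, Ndufs4, Ndufs6 and Ndufs7, where 1.64% of all genes held it. The ETS motif CCGGAAGT was in 1, that of Ndufs3, against 4.31% of all genes. The ERR motif TCAAGGTCA was in 0, against 0.466%, and CCAAT was in 13, against 41.1%. A match describes letters in a window and does not show that a factor binds there.

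Several genes had more than 1 probe, and the dimmer probes did not always follow the brighter ones. Of the 66 probes, 56 had a lower mean with MOTS-c and 10 a higher one. In 8 of the 18 genes with several probes the signs differed: Ndufa10, Ndufa13, Ndufaf5, Ndufb2, Ndufb8, Ndufs3, Ndufs5 and Ndufv2. The third probe of Ndufb2, far dimmer than the others, read -3.41, -3.57 and -3.42 with MOTS-c and -4.67, -4.07 and -3.74 with vehicle, a difference of 0.70 ± 0.24. The 2 brighter probes of the gene differed by -0.45 each. For Ndufa10, a subunit with a nucleoside kinase fold that read 2.73, 2.71 and 2.61 with MOTS-c and 3.45, 3.07 and 2.83 with vehicle at its brightest probe, the difference there was -0.43 ± 0.19. A second probe of Ndufa10 differed by -0.34 and the dimmest by 0.12. Among the 14 probes below the 75th percentile that were not the brightest of their gene, 7 were higher with MOTS-c. The deposited files do not say which exon or untranslated region a probe lies in, and no genome of build mm9 was used, so the targets of such probes were not resolved.

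The subunits differed between single arrays, and some cell marker lists varied with the subunits while others did not. On the 75th percentile scaling vehicle 1 was the highest vehicle array for 36 of the 45 Nduf genes. MOTS-c 3 was the lowest MOTS-c array for 39. The shares of all features with these patterns were not counted, so these counts do not set the Nduf genes apart from other features. Vehicle 1 also had the lowest 75th percentile, 678 intensity units, where the other arrays had 841 to 926. On the normalized columns vehicle 1 stayed highest of the vehicle arrays for Ndufv1, Ndufv2, Ndufs1 and Ndufb9. Vehicle 2 was the highest there for Ndufs3, Ndufs7, Ndufs8 and Ndufb10. On the 75th percentile scaling without vehicle 1 the median of the 45 genes was -0.28. Then 12 were lower at an unadjusted p under 0.05, where 10.8% of features were. With the slide as a block, which leaves vehicle 3 as the only vehicle array set against MOTS-c, the median was -0.24, and 1 gene was lower at that threshold, where 7.16% of features were. In that fit the subunits ranged from -0.59, for Ndufv1, to -0.0034, for Ndufs8. The erythroid list deviated by -0.52, -0.42 and -0.71 on MOTS-c arrays 1 to 3 and by 0.87, 0.18 and 0.60 on vehicle arrays 1 to 3, with all 12 genes lower. The dividing cell list deviated by -0.70, -0.28 and -0.72 on MOTS-c arrays and by 0.97, 0.27 and 0.47 on vehicle arrays, with all 10 genes lower. In the opposite direction, the T cell list deviated by 0.57, 0.49 and 0.43 on MOTS-c arrays and by -1.47, -0.13 and 0.11 on vehicle arrays, with all 10 genes higher. The 9 B cell genes were all higher, and their list deviated by 0.41, 0.31 and 0.43 on MOTS-c arrays and by -1.27, 0.25 and -0.13 on vehicle arrays. MOTS-c 3 had the lowest and vehicle 1 the highest value of the erythroid and dividing cell lists, as of the subunits. The order of the other vehicle arrays differed. Vehicle 3 lay above vehicle 2 in both lists, while the subunits had 0.14 on vehicle 2 and 0.070 on vehicle 3. The exocrine pancreas list ranged from -2.79 on MOTS-c 2 to 4.53 on vehicle 3 and did not follow the order of the subunits. The neutrophil list deviated by 0.95, 1.23 and -0.79 on MOTS-c arrays and by -0.51, -1.63 and 0.75 on vehicle arrays. The macrophage list stayed between -0.070 and 0.18 on all arrays. Neither list followed the order of the subunits. The part of any of these cell types in the Nduf values was not tested.

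The other respiratory complexes built mostly of nuclear subunits gave values of the same order. Complex III had a median of -0.49 over 9 genes, complex IV -0.47 over 9 and complex V -0.44 over 15, and all 33 of these genes had lower means. The normalized columns gave medians of -0.25, -0.23 and -0.20 for these complexes, with lower means for 8 of 9, 8 of 9 and 13 of 15 genes. Examples were Uqcrfs1, the iron-sulphur protein of complex III, at -0.77 ± 0.19, and Atp5b, the catalytic beta subunit of complex V, at -0.56 ± 0.18. Complex II, which has no mitochondrially encoded subunit, had a median of -0.16 over 8 subunit and assembly genes, with 5 lower. Unlike the lists of complexes III, IV and V, this one mixes subunits with assembly factors. Among the subunits, Sdhc differed by -0.33 and Sdhd by -0.40, and the probes of Sdhb by -0.36 to -0.23. The probes of Sdha ranged from -0.18 to 0.30. Among the assembly factors, Sdhaf1 differed by 0.015, Sdhaf3 by 0.14 and Sdhaf4 by -0.14. The probes of Sdhaf2 ranged from 0.0032 to 0.54. The median of the complex II list was 0.024 on the normalized columns, where 3 were lower and 5 higher, and 0.025 with quantile normalization. The 7 core subunits of complex I that mitochondrial DNA encodes had a median of -0.015, with 4 lower and 3 higher. On the authors' normalized columns the median of these mitochondrial genes was 0.17, while the 7 nuclear core genes had -0.20. ND2, a proton-pumping subunit, read 5.70, 5.76 and 5.82 on MOTS-c arrays, against 5.57, 5.64 and 5.57 on vehicle arrays. Its groups were apart with the MOTS-c arrays higher, at a difference of 0.17 ± 0.13, and ND5, the pumping subunit at the tip of the membrane arm, differed by 0.0026 ± 0.13. The difference between nuclear and mitochondrial core genes was not tested.

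**Figure D5:**
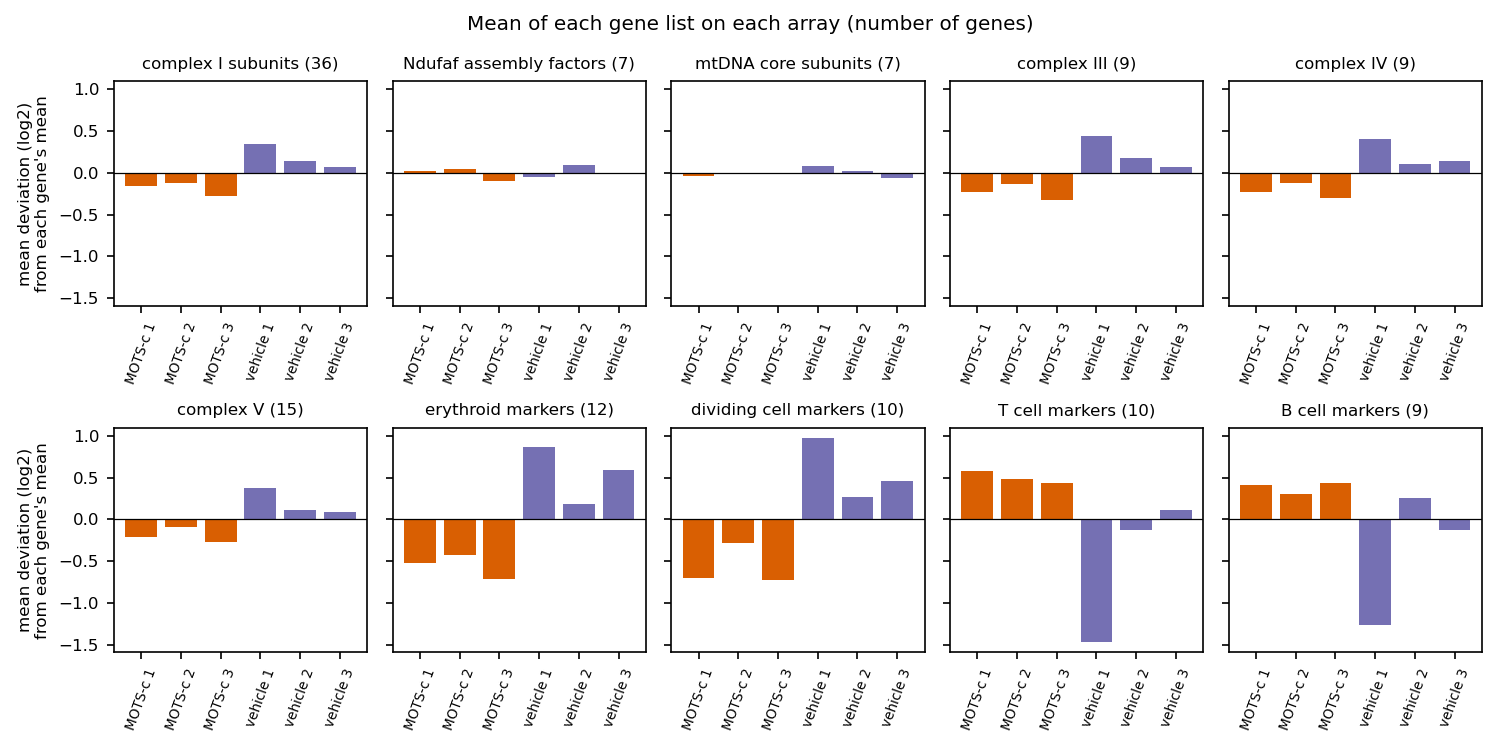
Mean deviation of each gene list on each array, in log2 units from each gene's own mean over the 6 arrays, with MOTS-c arrays in orange on the left and vehicle arrays in purple on the right. The subunit lists of complexes I, III, IV and V have the highest bar at vehicle 1 and the lowest at MOTS-c 3, as the erythroid and dividing cell lists do. In complex IV vehicle 3 lies above vehicle 2, at 0.14 and 0.10, unlike in complexes I, III and V. The assembly factors and the mitochondrially encoded core subunits stay near 0, and the erythroid and dividing cell bars are larger than those of the subunits.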

How the data were processed

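The 6 arrays were 1-colour Agilent arrays of spleen RNA, scanned for Cy3. Agilent Feature Extraction 11.0.1.1 made the scanner files, per the submitters' processing notes, and the deposited intensity values are processed signals with the background subtracted within each array, per the file headers. The deposited series table holds the same signals: within a relative tolerance of 0.0001, 100% of 31393 single-spot probes were equal. Its normalized columns are log2 values of the authors, quantile normalized as far as their sorted values show. A signed fold as a score and a p-value per probe, both of the authors, are deposited beside them; the test is not given in the sources used here.

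From the scanner files, control spots and 97 to 145 outlier spots per array were left out, spots of a probe were averaged, and each array's 75th percentile was subtracted from the log2 processed signal. The fit took the 33740 probes that every array of either group or both detected well above background, with the brightest probe standing for a gene. The fit was limma 3.58.1 in R 4.3.3 (lmFit and eBayes, two-sided, no covariate) over all 22513 features, adjusted by Benjamini-Hochberg, threshold 0.05. It was tested on simulated data with independent genes, no slides and set changes larger than any Nduf difference. That test does not cover differences of the size reported here. The normalized columns were fitted in the same way. Precision is limited by the 3 arrays of each group.

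Groups and replicate numbers came from the titles; the descriptions of vehicle 3 and MOTS-c 3 give other numbers. Deviations of same-numbered arrays correlated at -0.17, 0.033 and -0.073 over features, so the numbers were not taken as pairs. The genes given with values on every array are the core genes, the 8 accessory genes with the smallest and the 3 with the largest p, every accessory s and v gene, every assembly factor, each member higher with MOTS-c, and members whose probes differ in sign; 1 gene that this rule names is not reported here and not drawn, though counts and medians include it. Ndufa4 lies outside this rule and is given because present naming sets it apart, a choice made after its values were seen. Of the comparison lists other than that of complex II only examples are named. The members, lists and naming rule were chosen with earlier results of these data known, and a list is described by its counts and median beside the same over all features. Alternatives were other normalizations, normexp background correction with an offset of 50 on the median signal, other filters on dim probes, the mean of a gene's probes, the slide or the replicate number as a block, and each array left out in turn. Promoter motifs were matched exactly in RefSeq sequences on GRCm38.p6, with letters chosen after the data were seen; probe coordinates are mm9, per the file headers.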

Additional observations from a re-analysis of the deposited data

How the results depend on the processing

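The 3 arrays per group, the single vehicle array on the slide of the MOTS-c arrays and the scaling limit these results. The median over the Nduf genes was -0.15 with quantile normalization, -0.15 on the authors' normalized columns and -0.14 with normexp followed by quantile normalization. For the core genes it was -0.20 in each of the first 2 of these and -0.15 with the slide as a block. For the accessory genes it was -0.15, -0.16 and -0.16 in those 3, and -0.25 with the slide as a block. For the assembly factors, blocking on the slide gave 0.079, and the median ranged from -0.18 without vehicle 3 to 0.034 without vehicle 2. Features passing the adjusted threshold were 0 on the authors' normalized columns, with normexp before either scaling, with only probes well above background on all 6 arrays and with no filter on dim probes, and 1 with the slide as a block. Leaving out each array in turn gave 0 to 682, the most without vehicle 2. Entirely below vehicle were 23 Nduf genes with quantile normalization, 23 on the authors' columns and 19 with normexp and quantile normalization, where 16.4%, 16.4% and 15.8% of features were. Lower at an unadjusted p under 0.05 were 8, 9 and 10 of the 45 in those 3, where 13.1%, 13.3% and 12.9% of features were. Blocking on the slide left 1, beside 7.16% of features. With each array left out there were 4, without MOTS-c 3, to 23, without vehicle 3, where 9.1% and 16.0% of features were. With the replicate number as a block 0 features passed and 7 Nduf genes were lower at an unadjusted p under 0.05, where 11.4% of features were, though the numbers do not pair the arrays, and their median stayed at -0.34. The cause of these changes was not tested.

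Of the named genes, some turned positive with quantile normalization, on the authors' normalized columns or with both normexp and quantile normalization, in that order: Ndufa13 at 0.13, 0.13 and 0.18, Ndufa3 at 0.11, 0.11 and 0.090, Ndufb5 at 0.12, 0.12 and 0.090, and Ndufaf3 at 0.0065, 0.0062 and 0.00042. In the last of these settings Ndufs5 was at 0.013, Ndufa6 at 0.0011 and Ndufa7 at 0.058, and Ndufa7 was at 0.0016 with quantile normalization. Averaging the probes of a gene put Ndufa13 at 0.094 and Ndufs3 at 0.034. Ndufaf3 was at 0.041 with the percentile taken over probes detected on all arrays, a setting chosen after seeing the data, and between -0.19 and 0.11 with each array left out. With the slide as a block Ndufaf6 was at 0.16, Ndufaf7 at 0.14 and Ndufaf5 at 0.079. With each array left out, Ndufaf6 ranged from -0.18 to 0.034, Ndufaf7 from -0.23 to 0.0038 and Ndufa4l2 from -0.073 to 0.42.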

Other observations

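A list of genes of mitochondrial content and of its regulators, chosen with earlier results known, held differences in both directions. The genes of content in it, Cs, Vdac1 and Tomm20, were lower. Of 13 tested genes 7 were lower and 6 higher, with a median of -0.043, and 0 passed limma's adjusted threshold. Nrf1, the gene of nuclear respiratory factor 1, read 1.38, 1.51 and 1.45 on MOTS-c arrays and 2.84, 2.12 and 2.11 on vehicle arrays, a difference of -0.91 ± 0.22. The groups were apart, vehicle 1 was the highest array, and the 3 probes of the gene differed by -0.91 to -0.39. Esrra, the gene of the oestrogen-related receptor alpha, read 2.46, 2.39 and 2.44 with MOTS-c and 1.29, 1.98 and 1.99 with vehicle, a difference of 0.68 ± 0.21. Its groups were also apart, and vehicle 1 was the lowest array. Tomm20, a receptor of the outer membrane import pore, differed by -0.66 ± 0.22, with its 3 probes at -0.66 to -0.23. The probes of Cs differed by -0.52 to -0.39 and that of Vdac1 by -0.53. The 6 higher genes were Esrra, Ppargc1b, Tfam, Twnk, Yy1 and Polg. Polg, the mitochondrial DNA polymerase, differed by 0.45 ± 0.15, with its 3 probes at 0.14 to 0.45. Yy1, a factor with motifs in 5 of the Nduf promoters, had the largest p of the list and differed by 0.030 ± 0.18. Its 3 probes differed by -0.26 to 0.030.

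Complex I genes that the array lists under another symbol fell outside the rule and were looked up after the values were seen. Ndufb1, a subunit of the membrane arm, read 4.28, 4.50 and 4.19 with MOTS-c and 5.22, 4.70 and 4.89 with vehicle, a difference of -0.61 ± 0.18 with separate groups. Ndufaf8, an assembly factor that partners Ndufaf5, read 0.12, 0.020 and -0.12 with MOTS-c and 0.18, 0.42 and -0.15 with vehicle. Its groups overlapped, at a difference of -0.14 ± 0.18.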
